A study of Homo sapiens with 4 samples.

Results

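The genes described here are the aminoacyl-tRNA synthetases, taken as the rows of the deposited gene table whose symbol was on a list of 37 synthetase genes. All 37 were found among 58735 genes. By the compartment in which the enzyme works they were divided into 19 cytosolic genes, 16 mitochondrial genes and 2 genes, GARS and KARS, whose proteins serve both compartments. Expression was measured by RNA sequencing in 4 libraries, 2 labelled WT and 2 labelled KO. The labels name the cells as HFL1, an established human fetal lung fibroblast line. The study targeted CALU, which encodes calumenin, a protein of the endoplasmic reticulum that binds calcium, to ask how its loss affects senescence and fibrosis signalling in fibroblasts. How the knockout was made, and whether the KO cells are 1 clone or a pool, is not given in the sources used here.

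Aminoacyl-tRNA synthetases attach each amino acid to its transfer RNA and so supply the ribosome with charged tRNA. Cytosolic and mitochondrial protein synthesis mostly use separate enzymes, and both sets are encoded in the nucleus. Several cytosolic synthetases are known targets of ATF4, the transcription factor that cells raise when amino acids are short or the endoplasmic reticulum is stressed. ATF4 acts with C/EBP proteins at a composite DNA element and also drives amino acid transporters and serine synthesis. Some cytosolic synthetases are held together with 3 scaffold proteins in the multi-synthetase complex, and others are free in the cytosol.

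Values are FPKM, reads scaled to gene length and library size. Log2 changes are KO minus WT of log2(FPKM + 1), a scale that understates the change of low genes. Reads recovered from the table numbered 16173899 to 17715774 per library, and the 37 genes held 38 to 9149 reads each per library, which sets counting error only. Whether a group's 2 libraries are separate cultures is not in the labels. The p-values therefore cover only library-to-library spread, possibly technical. CALU stood at 87.7 and 81.8 FPKM in libraries labelled WT and at 6.59 and 5.95 FPKM in those labelled KO. Of 14 fibroblast markers, 8 stayed below 1 FPKM in every library, and COL1A2 and POSTN were at 0 reads in all 4. The summed level of the 14 was 1063 and 1438 FPKM in WT and 586 and 834 FPKM in KO, of which S100A4 alone made up 933 and 1352 FPKM in WT and 449 and 723 FPKM in KO. S100A4 was not called (limma adjusted p = 0.0789). Of the 6 markers tested, 1 rose and 2 fell (16.7% and 33.3%), against 12.1% and 11.1% of all genes tested. COL1A1 rose, at 0.234 and 0.28 FPKM in WT and 3.04 and 3.16 FPKM in KO, and NT5E and TWIST2 fell. Both KO libraries lay above both WT libraries for 3 (COL1A1, VIM and THY1) and below them for 3 (S100A4, NT5E and TWIST2). That is 50% each way, against 34.4% and 31.3% of all genes tested. Of 7 epithelial markers, 1 stayed below 1 FPKM in every library, and their summed level was 706 and 813 FPKM in WT and 1530 and 1760 FPKM in KO. Most of that sum was KRT8, at 349 and 425 FPKM in WT and 731 and 926 FPKM in KO, and KRT18, at 326 and 356 FPKM in WT and 710 and 741 FPKM in KO. Of the 6 tested, 4 rose and 1 fell, against 12.1% and 11.1% of all genes tested. The 1 that fell was CLDN4, at 4.57 and 5.27 FPKM in WT and 0.947 and 0.973 FPKM in KO. CDH1 read 6.79 and 8.55 FPKM in WT and 39.9 and 36.9 FPKM in KO. Although S100A4 was abundant, most listed fibroblast markers were near 0 while KRT8 and KRT18 were high in all 4 libraries. The markers therefore do not bear out the fibroblast name in the labels, and the identity of the cells was not tested. Endothelial markers summed to at most 0.937 FPKM in any library. Leukocyte markers summed to 20.2 and 17.7 FPKM in WT and 5.99 and 6.71 FPKM in KO, with CD3E at 0, and mural markers to 9.99 and 9.75 FPKM in WT and 6.17 and 5.82 FPKM in KO. The summed level of 5 genes of dividing cells was 7.25 and 15.1 FPKM in WT and 149 and 144 FPKM in KO. The part of these differences in the results below was not tested, and in bulk RNA fewer cells of a type and less RNA per cell cannot be told apart.

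Cytosolic genes were the more abundant set per unit of length. Their mean WT level had a median of 26.7 FPKM and ran from 4.35 FPKM for TARSL2 to 103 FPKM for AARS. The mitochondrial genes had a median of 4.28 FPKM, from 0.832 FPKM for SARS2 to 47.2 FPKM for IARS2. IARS2, which charges mitochondrial tRNA with isoleucine, thus stood apart from the other 15 mitochondrial genes, of which YARS2 was the highest at 12.9 ± 0.192 FPKM (SD, n = 2). Summed over the 19 cytosolic genes, the level was 604 and 550.0 FPKM in WT and 536 and 483 FPKM in KO. Summed over the 16 mitochondrial genes it was 139 and 127 FPKM in WT and 167 and 154 FPKM in KO. In both sums the groups did not overlap: the KO libraries were lower for the cytosolic set and higher for the mitochondrial set.

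**Figure D1:**
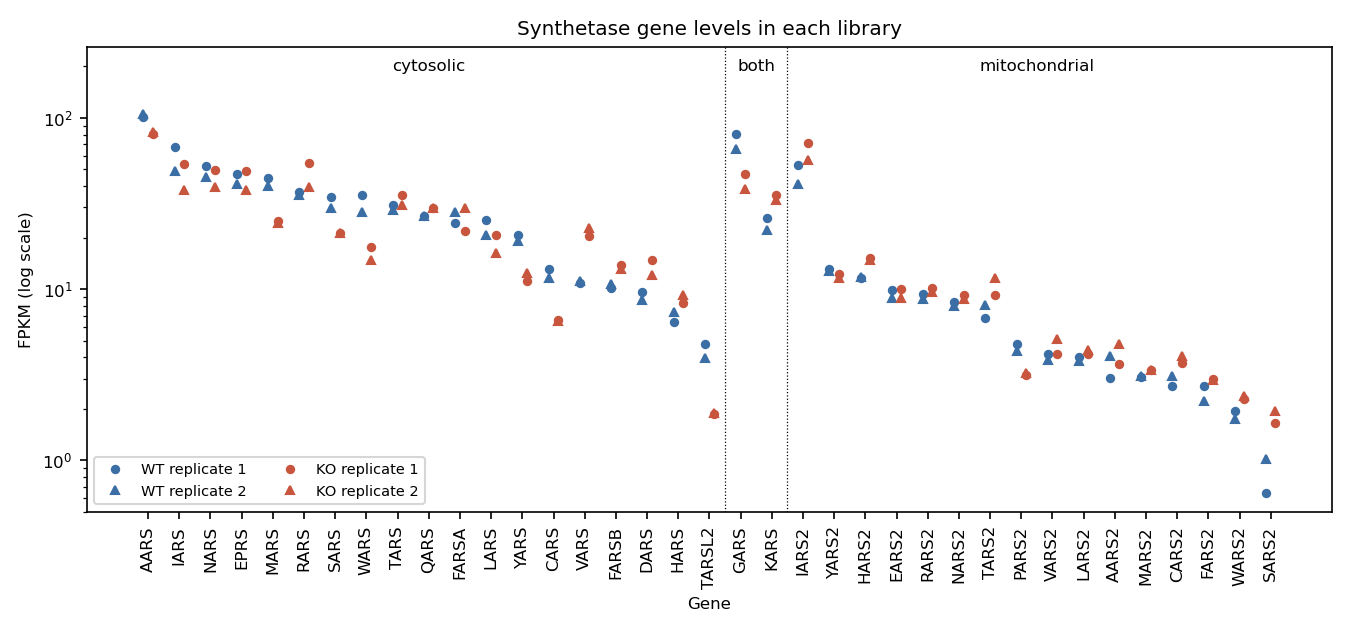
FPKM of each of the 37 synthetase genes (log axis) in the 2 WT libraries (blue) and 2 KO libraries (red), with circles for replicate 1 and triangles for replicate 2, ordered within each compartment by the mean WT level. The KO points of TARSL2, CARS, WARS and GARS lie below their WT points, those of VARS lie above, and every mitochondrial gene but IARS2 sits under 16 FPKM, mostly with KO points slightly above WT points.

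Of the 37 genes, all tested, 7 fell and 1 rose in KO at an adjusted p under 0.05 (limma, adjusted over the 14100 genes tested). That is 21.6% of the members in either direction, near the 23.3% of all genes tested that were called. In the downward direction the share was 18.9% of the members against 11.1% of all genes, and upward it was 2.70% against 12.1%. All 8 called genes encode an enzyme that works in the cytosol, 7 of them cytosolic and 1, GARS, in both compartments. None of the 16 mitochondrial genes was called by limma, the lowest adjusted p among them being 0.0638 for SARS2. All 8 calls were lost without WT replicate 1 (adjusted p = 0.0862 to 0.308) and with no filter on low values (adjusted p = 0.052 to 0.105). Only WARS and TARSL2 were still called without WT replicate 2 (adjusted p = 0.0472 to 0.147 over the 8).

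**Figure D2:**
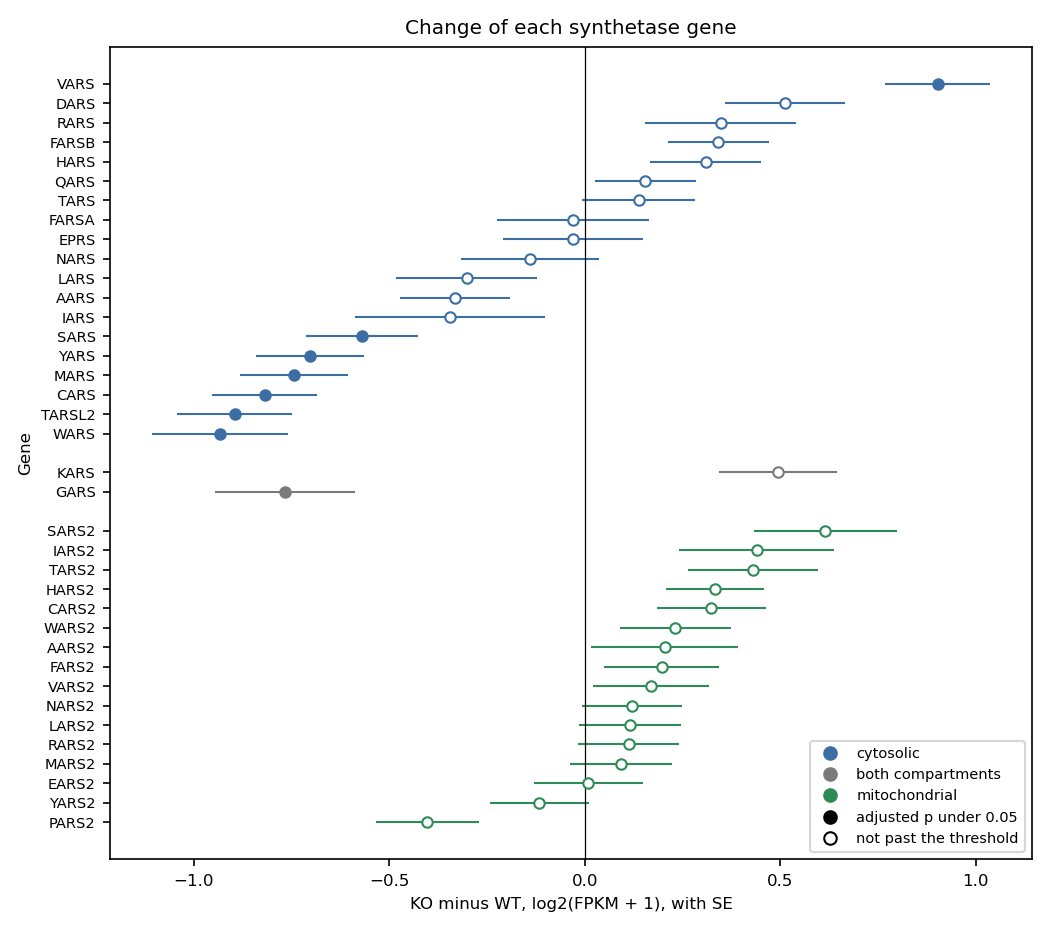
KO minus WT difference in log2(FPKM + 1) for each synthetase gene, with bars for the standard error, grouped as cytosolic (blue), both compartments (grey) and mitochondrial (green); filled points passed an adjusted p under 0.05 and open points did not. Filled points are found among cytosolic genes and GARS alone, from -0.93 for WARS to 0.90 for VARS, and 14 of the 16 mitochondrial points lie right of 0.

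WARS, which charges tryptophan and is also known as an interferon-induced gene, had the largest fall on the log2 scale. It read 35.7 and 28.4 FPKM in WT and 17.6 and 14.9 FPKM in KO, a level 1.97-fold lower (log2 -0.93, SE 0.17, limma adjusted p = 0.0189). Both KO libraries lay below both WT libraries, as they did for each of the 7 genes that fell and for 31.3% of all genes tested. For called genes this separation largely follows from the call, which rests on the same libraries. WARS (ENSG00000140105) lies on chromosome 14 from 100333788 to 100376805 on GRCh38, minus strand. TARSL2, a paralogue of the threonyl-tRNA synthetase gene TARS, was the least abundant gene that fell and the one with the largest ratio. It read 4.74 and 3.95 FPKM in WT and 1.86 and 1.88 FPKM in KO, 2.33-fold lower (log2 -0.90, SE 0.15, limma adjusted p = 0.0137). TARS itself, which makes threonyl-tRNA in the cytosol, stood at 31.2 and 28.8 FPKM in WT and 35.4 and 30.9 FPKM in KO, with overlapping groups (limma adjusted p = 0.534). Reads that fit both paralogues could be split between them, and how such reads were counted is not given in the sources used here.

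CARS, the cysteinyl-tRNA synthetase gene, read 13.1 and 11.6 FPKM in WT and 6.56 and 6.52 FPKM in KO, 1.88-fold lower (log2 -0.82, SE 0.13, limma adjusted p = 0.0135). GARS, which supplies glycyl-tRNA to cytosol and mitochondria from a single gene, was the second most abundant synthetase gene in WT. Its level was 80.2 and 66.1 FPKM in WT and 46.9 and 38.4 FPKM in KO, 1.72-fold lower (log2 -0.77, SE 0.18, limma adjusted p = 0.0339, and 0.0819 without KO replicate 2). MARS, the methionyl-tRNA synthetase gene, read 44.5 and 39.8 FPKM in WT and 25.0 and 24.3 FPKM in KO, 1.71-fold lower (log2 -0.74, SE 0.14, limma adjusted p = 0.0187). The KO libraries of CARS and MARS were close to each other, so the larger part of the spread was between the WT libraries. MARS (chromosome 12, 57475445 to 57517569) shares 355 bases of exon, 5.05% of its counted length, with DDIT3 on the opposite strand. DDIT3, which encodes the stress factor CHOP, read 11.7 and 7.52 FPKM in WT and 2.10 and 2.90 FPKM in KO. Whether counting used strand is not given in the sources used here, so reads of this stretch cannot be told apart.

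YARS, the tyrosyl-tRNA synthetase gene, read 20.7 and 19.0 FPKM in WT and 11.1 and 12.4 FPKM in KO, 1.68-fold lower (log2 -0.70, SE 0.14, limma adjusted p = 0.0215, and 0.0532 without KO replicate 1). SARS, which charges the tRNAs of serine and also loads selenocysteine tRNA with serine, was nearest the threshold among the genes that fell. It read 34.5 and 29.6 FPKM in WT and 21.2 and 21.3 FPKM in KO, 1.51-fold lower (log2 -0.57, SE 0.14, limma adjusted p = 0.0417). SARS lost its call without any 1 of the 4 libraries (adjusted p = 0.0753 to 0.308). AARS, the alanyl-tRNA synthetase gene and the most abundant of the 37, stood at 102 and 105 FPKM in WT and 80.8 and 82.9 FPKM in KO. Its groups did not overlap, but the difference did not pass the test (log2 -0.33, SE 0.14, limma adjusted p = 0.146).

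VARS, the valyl-tRNA synthetase gene, was the single member that rose. It read 10.9 and 11.1 FPKM in WT and 20.3 and 22.7 FPKM in KO, 1.95-fold higher (log2 0.90, SE 0.13, limma adjusted p = 0.011). The gene (ENSG00000204394) lies on chromosome 6 from 31777518 to 31795953, minus strand. DARS, for aspartate, and KARS, for lysine in both compartments, came next among the cytosolic and dual genes, without passing the test. DARS read 9.59 and 8.60 FPKM in WT and 14.7 and 12.1 FPKM in KO (limma adjusted p = 0.0644). KARS read 26.2 and 22.0 FPKM in WT and 35.5 and 33.0 FPKM in KO (limma adjusted p = 0.0676). The 2 dual-compartment genes therefore lay on opposite sides, GARS below and KARS above its WT libraries.

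None of the other cytosolic genes passed the test. FARSA and FARSB encode the 2 subunits of the cytosolic phenylalanyl-tRNA synthetase. FARSA overlapped between groups, at 24.3 and 28.1 FPKM in WT and 21.8 and 29.95 FPKM in KO (log2 -0.03, SE 0.19). FARSB was higher in both KO libraries, at 10.1 and 10.7 FPKM in WT and 13.8 and 13.1 FPKM in KO (log2 0.34, SE 0.13, limma adjusted p = 0.111). IARS, for isoleucine, had the largest standard error of the 37 genes, at 67.7 and 49.1 FPKM in WT and 53.9 and 37.8 FPKM in KO (log2 -0.35, SE 0.24, limma adjusted p = 0.348). LARS, for leucine, read 25.4 and 20.8 FPKM in WT and 20.7 and 16.4 FPKM in KO, so the groups only just failed to overlap (limma adjusted p = 0.27). RARS, for arginine, was close in the WT libraries, at 37.1 and 35.2 FPKM, and wide in the KO libraries, at 54.4 and 39.3 FPKM (limma adjusted p = 0.24). NARS, for asparagine, overlapped between groups, at 52.7 and 45.2 FPKM in WT and 49.5 and 39.4 FPKM in KO. Over the 19 cytosolic genes the median log2 change was -0.14 and the range -0.93 to 0.90, beside a median of 0.03 over all genes tested. That median was -0.30 without KO replicate 1 and -0.25 without WT replicate 2, but -0.12 without WT replicate 1 and -0.09 without KO replicate 2. Of these 19, both KO libraries lay below both WT libraries for 8 and above them for 6, that is 42.1% and 31.6%, against 31.3% and 34.4% of all genes tested.

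The promoters of the cytosolic genes were searched for TGATGNAA, the core of the element at which ATF4 and C/EBP proteins are known to act, on both strands of the 300 bases from 250 before to 50 after the RefSeq start site (GRCh38.p14). A promoter was matched for 30 of the 37 genes, 14 of them cytosolic, 14 mitochondrial and 2 of both compartments; AARS2, DARS, LARS, TARSL2, VARS, VARS2 and YARS were not matched. The core was present in 6 of the 14 cytosolic promoters (42.9%), in 1 of the 14 mitochondrial promoters (7.14%), in neither of the 2 others, and in 3.62% of 35116 promoters in the RefSeq table. In all 6 cytosolic genes the matched bases were the same, TGATGCAA or its reverse complement TTGCATCA. The 6 matches are printed below with 11 bases on either side, on the gene's strand from 5′ to 3′, with the match in capitals, because the identical core recurs in genes for 6 different amino acids.
AARS: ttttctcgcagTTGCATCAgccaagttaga
CARS: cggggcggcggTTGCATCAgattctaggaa
IARS: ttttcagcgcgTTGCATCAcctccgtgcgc
MARS: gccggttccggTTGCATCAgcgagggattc
NARS: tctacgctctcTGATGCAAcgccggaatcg
TARS: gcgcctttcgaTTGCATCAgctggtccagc

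On GRCh38.p14 these windows are chr16:70289675-70289704 for AARS, chr11:3057407-3057436 for CARS, chr9:92293692-92293721 for IARS, chr12:57488053-57488082 for MARS, chr18:57621804-57621833 for NARS and chr5:33440956-33440985 for TARS. MARS and TARS are on the plus strand and the other 4 on the minus strand. The match began 187 bases before the start site in AARS, within 13 bases before it in CARS, IARS and MARS, and 14 and 2 bases after it in NARS and TARS. The core was present in promoters of genes that fell and of genes that were not called. CARS and MARS carry it and fell, whereas AARS, IARS, NARS and TARS carry it and were not called. SARS, WARS and GARS fell with no match of these letters in this window, which says nothing of sites elsewhere. The single mitochondrial match, in YARS2, was TGATGGAA, a different form of the core. It read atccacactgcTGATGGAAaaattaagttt, on chr12:32756076-32756105, minus strand. YARS2 itself stood at 13.1 and 12.8 FPKM in WT and 12.2 and 11.5 FPKM in KO (limma adjusted p = 0.55).

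Of the 8 genes whose enzymes belong to the multi-synthetase complex (EPRS, IARS, LARS, MARS, QARS, RARS, KARS and DARS), 1 fell, MARS, and 0 rose. Of the 13 other genes for cytosolic or dual enzymes, 6 fell and 1 rose. The share that fell was 12.5% in the complex, near the 11.1% of all genes tested, and 46.2% among the 13 others. The median log2 change was 0.06 for the complex and -0.33 for the 13 others, and no test was made between them. Within the complex 4 genes lay above 0 and 4 below, from -0.74 for MARS to 0.51 for DARS, so its genes did not share a direction, although EPRS turned above 0 without WT replicate 1 or KO replicate 2. EPRS, the fused glutamyl- and prolyl-tRNA synthetase gene, was nearly level, at 47.1 and 40.9 FPKM in WT and 48.7 and 37.8 FPKM in KO. QARS, for glutamine, was the steadiest of the 37 between replicates of each group, at 26.7 FPKM in each WT library and at 29.8 and 29.9 FPKM in KO (limma adjusted p = 0.425). The scaffold genes AIMP1, AIMP2 and EEF1E1 were not called. AIMP2 was lower in both KO libraries, at 23.1 and 19.6 FPKM in WT and 15.5 and 13.7 FPKM in KO (limma adjusted p = 0.0622). AIMP1 was higher in both, at 11.6 and 10.9 FPKM in WT and 14.0 and 13.3 FPKM in KO (limma adjusted p = 0.197).

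Mitochondrial synthetase genes were mostly slightly higher in KO, with none past the test. The median log2 change of the 16 was 0.18 (0.11 without WT replicate 2) and the range -0.40 to 0.61. The difference lay above 0 for 14 and below 0 for 2, although EARS2, at 0.01, turned below 0 when libraries were scaled to equal total reads and with quantile normalization, and also without WT replicate 2 or KO replicate 1. Both KO libraries lay above both WT libraries for 12 of the 16 (75.0%) and below them for 2 (12.5%), against 34.4% and 31.3% of all genes tested. The set's median deviation from the WT mean, on the log2 scale, was 0.03 and -0.03 for the WT replicates and 0.15 and 0.22 for the KO replicates. The corresponding deviations of the cytosolic set were 0.07 and -0.07 in WT and -0.09 and -0.30 in KO, so the KO libraries differed from each other by more in the cytosolic set.

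SARS2, which charges mitochondrial serine tRNAs, had the largest mitochondrial difference. It read 0.644 and 1.02 FPKM in WT and 1.64 and 1.95 FPKM in KO, from 38, 54, 93 and 103 reads (log2 0.61, SE 0.18, limma adjusted p = 0.0638). Of its counted length 46.2% is shared with AC011455.2, a protein-coding gene model on the same strand that stood at or below 0.0621 FPKM, and 10.8% with MRPS12 on the other strand, at 43.4 to 62.9 FPKM. For VARS2, 22.0% of the length is shared with GTF2H4. Whether reads of shared exons were counted is not given in the sources used here.

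IARS2, the most abundant mitochondrial member, read 53.2 and 41.1 FPKM in WT and 71.6 and 56.9 FPKM in KO (log2 0.44, SE 0.20, limma adjusted p = 0.167). It lies 47443 bases from EPRS on chromosome 1, and the pair differed in size of change, EPRS being at -0.03. TARS2, for threonine, read 6.80 and 8.08 FPKM in WT and 9.21 and 11.6 FPKM in KO (limma adjusted p = 0.12). HARS2 read 11.6 and 11.7 FPKM in WT and 15.1 and 14.8 FPKM in KO (limma adjusted p = 0.112). It stands head to head with its cytosolic counterpart HARS on chromosome 5, and 437 bases of exon are shared between the 2 strands, 11.7% of HARS2 and 5.56% of HARS. HARS was higher in KO as well, at 6.38 and 7.35 FPKM in WT and 8.25 and 9.23 FPKM in KO (limma adjusted p = 0.17). CARS2, for cysteine, was 1.34-fold higher in mean level and WARS2, for tryptophan, 1.27-fold higher, with no overlap of groups and adjusted p of 0.15 and 0.287 (limma). PARS2, for proline, went the other way, at 4.76 and 4.37 FPKM in WT and 3.16 and 3.25 FPKM in KO (log2 -0.40, SE 0.13, limma adjusted p = 0.0793). The remaining mitochondrial genes (AARS2, EARS2, FARS2, LARS2, MARS2, NARS2, RARS2 and VARS2) had adjusted p of 0.378 to 0.97 in limma.

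For 13 amino acids the cytosolic and the mitochondrial enzyme have a gene each among the 37, and the ratio of the 2 FPKM values within a library does not depend on how libraries were scaled. In 9 of these 13 pairs the ratio was lower in both KO libraries than in both WT libraries, in 2 it was higher, and in 2 the groups overlapped. How often ratios of other gene pairs separate in this way was not counted. Among single genes, both KO libraries lay below both WT libraries for 31.3% of all genes tested and above them for 34.4%. With 2 libraries in each group an exact permutation test reaches no p under 0.333, so none is given for the ratios. The WARS to WARS2 ratio was 18.4 and 16.4 in WT and 7.70 and 6.29 in KO. For CARS and CARS2 it was 4.82 and 3.76 in WT and 1.78 and 1.61 in KO. For MARS and MARS2 it was 14.5 and 12.8 in WT and 7.48 and 7.21 in KO. In these 3 pairs the cytosolic gene fell and the mitochondrial gene was not called.

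The ratio of SARS to SARS2 showed the largest difference, at 53.6 and 29 in WT and 12.9 and 10.9 in KO, but it rests on the low SARS2 values. IARS exceeded IARS2 in WT, at a ratio of 1.27 and 1.19, and was below it in KO, at 0.753 and 0.665, although neither gene was called. YARS to YARS2 went from 1.58 and 1.48 in WT to 0.913 and 1.08 in KO. The exceptions were VARS to VARS2, at 2.63 and 2.88 in WT and 4.88 and 4.43 in KO, and RARS to RARS2, at 3.98 and 4.03 in WT and 5.39 and 4.09 in KO. HARS to HARS2 overlapped, at 0.55 and 0.626 in WT and 0.545 and 0.624 in KO.

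**Figure D3:**
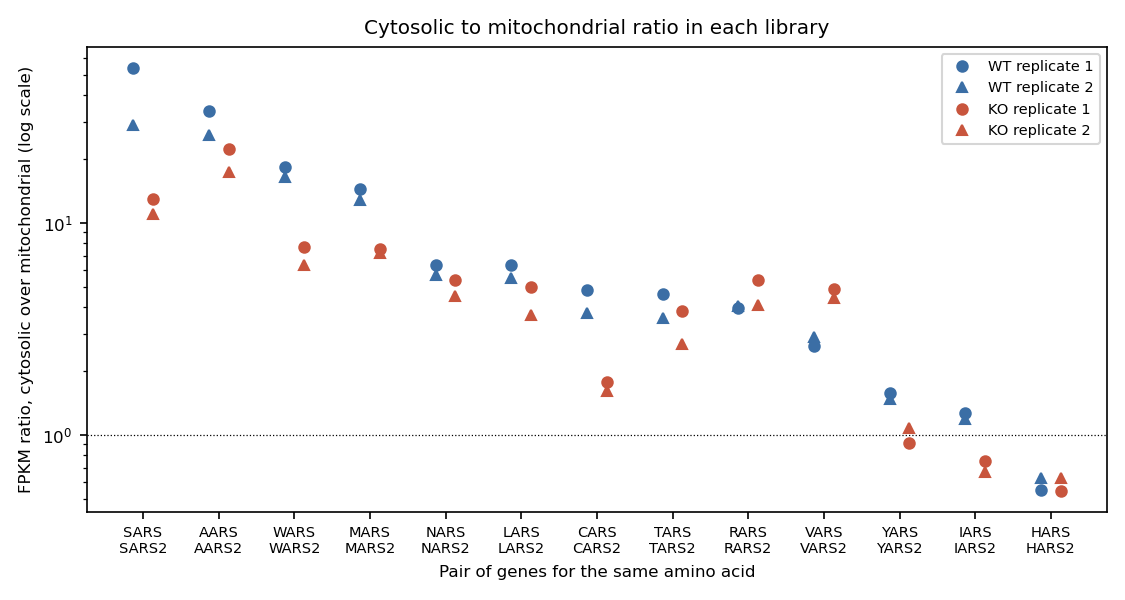
Ratio of cytosolic to mitochondrial FPKM (log axis) within each library for the 13 pairs of synthetase genes that serve the same amino acid, with WT in blue, KO in red, circles for replicate 1 and triangles for replicate 2; the dotted line marks a ratio of 1. KO points lie below WT points in 9 pairs, above them in the VARS and RARS pairs, and among them in the TARS and HARS pairs.

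Other genes of amino acid supply were read from lists of known pathway members. Of 14 tested genes of the amino acid response, 11 fell and 0 rose, with a median log2 change of -1.41 against 0.03 over all genes tested. The share that fell was 78.6%, against 11.1% of all genes tested. ATF4 itself read 140.4 and 144 FPKM in WT and 70.6 and 89.3 FPKM in KO, 1.78-fold lower (limma adjusted p = 0.0257). CHAC1, which degrades glutathione and is a known ATF4 target, read 33.8 and 25.5 FPKM in WT and 2.08 and 2.34 FPKM in KO. SESN2, a leucine sensor upstream of mTORC1, read 18.5 and 15.1 FPKM in WT and 3.82 FPKM in both KO libraries. CHAC1 and SESN2 differed by more than any synthetase gene, whose log2 changes stayed within -0.93 and 0.90, whereas ATF4, at log2 -0.83, lay within that range. ASNS, which makes asparagine, did not reach the filter on low values, at 1.05 and 0.794 FPKM in WT and 0.5 and 0.507 FPKM in KO. The count of 11 became 7 without WT replicate 1 or WT replicate 2 and 3 with no filter on low values, and ATF4 lost its call in these and without KO replicate 1.

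Of 10 amino acid transporter genes, 7 fell and 0 rose, with a median log2 change of -1.08. The share that fell was 70%, against 11.1% of all genes tested. SLC3A2, the shared heavy chain of several amino acid exchangers, read 148 and 132 FPKM in WT and 45.1 and 58.3 FPKM in KO. SLC1A5, which imports glutamine, read 185 and 166 FPKM in WT and 71.7 and 74.2 FPKM in KO. SLC6A9, a glycine transporter, read 14.6 and 15 FPKM in WT and 4.88 and 4.68 FPKM in KO. All 3 were lower in both KO libraries, which largely follows from their calls on the same libraries. The transporter count was smaller without WT replicate 1 or WT replicate 2, and became 1 with no filter on low values.

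Of 9 genes of serine and one-carbon metabolism, 4 fell and 2 rose. These are shares of 44.4% and 22.2%, against 11.1% and 12.1% of all genes tested. PHGDH, which starts serine synthesis, read 14.2 and 13.8 FPKM in WT and 5.60 and 6.40 FPKM in KO, and PSAT1, the next enzyme, 218 and 183 FPKM in WT and 60.9 and 54.9 FPKM in KO. MTHFD2 and ALDH1L2, mitochondrial folate enzymes, fell 2.01-fold and 2.83-fold, calls that both lost without WT replicate 1 and with no filter on low values. MTHFD2 also lost its call without KO replicate 2. The 2 that rose, MTHFD1 and SHMT1, are cytosolic folate enzymes, at 1.90-fold and 1.55-fold. The counts that fell and rose became 2 and 0 without WT replicate 1, 4 and 0 without WT replicate 2, 4 and 1 without KO replicate 1, 3 and 1 without KO replicate 2, and 2 and 0 with no filter on low values.

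Most genes of the translation steps next to charging were not called, but this holds for all genes tested as well, of which 23.3% were called. Of all genes tested, 12.1% rose and 11.1% fell. Of 14 tested partners of tRNA charging, 1 rose, the D-aminoacyl-tRNA deacylase gene DTD1, and 0 fell. DTD1 read 2.0 and 2.04 FPKM in WT and 3.32 and 4.17 FPKM in KO (limma adjusted p = 0.0356), a call lost without WT replicate 1, WT replicate 2 or KO replicate 2. XPOT, which exports tRNA from the nucleus, read 46.8 and 33.0 FPKM in WT and 25.7 and 20.3 FPKM in KO (limma adjusted p = 0.0601). QRSL1, GATB and GATC encode the amidotransferase by which mitochondria make glutaminyl-tRNA from the product of EARS2, and none of the 3 was called. Among 9 mitochondrial translation factor genes 0 were called by limma, and the median log2 change was 0.04. TUFM, the mitochondrial elongation factor that delivers charged tRNA, read 99.7 and 106 FPKM in WT and 95.3 and 114 FPKM in KO. Of 4 tested cytosolic elongation factor genes 0 were called, with EEF1A1 at 1728 and 1678 FPKM in WT and 1215 and 1147 FPKM in KO (limma adjusted p = 0.112).

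Of 10 genes for the eIF2 kinases, eIF2 and eIF2B, which set the switch upstream of ATF4, 1 rose and 0 fell. The share that rose was 10%, near the 12.1% of all genes tested. Both KO libraries lay above both WT libraries for 7 of the 10 (70%) and below them for 0, against 34.4% and 31.3% of all genes tested. The median log2 change of the list was 0.30. EIF2AK3, the kinase PERK, read 2.88 and 2.39 FPKM in WT and 5.88 and 4.94 FPKM in KO (limma adjusted p = 0.0195), a call lost without WT replicate 1, WT replicate 2 or KO replicate 1. EIF2AK4, the kinase GCN2 that senses uncharged tRNA, was not called, at 4.74 and 4.14 FPKM in WT and 5.52 and 4.66 FPKM in KO. IFIT1, an interferon-induced antiviral effector, rose, at 1.01 and 1.47 FPKM in WT and 3.27 and 2.91 FPKM in KO (limma adjusted p = 0.0211). That call was lost without WT replicate 1 or KO replicate 1. Other interferon-induced genes did not share a direction. IRF1 and IFI6 were lower in both KO libraries and OAS1 was higher in both, with none of them called. With no filter on low values DTD1, EIF2AK3 and IFIT1 were not called (limma adjusted p = 0.0824 to 0.117).

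**Figure D4:**
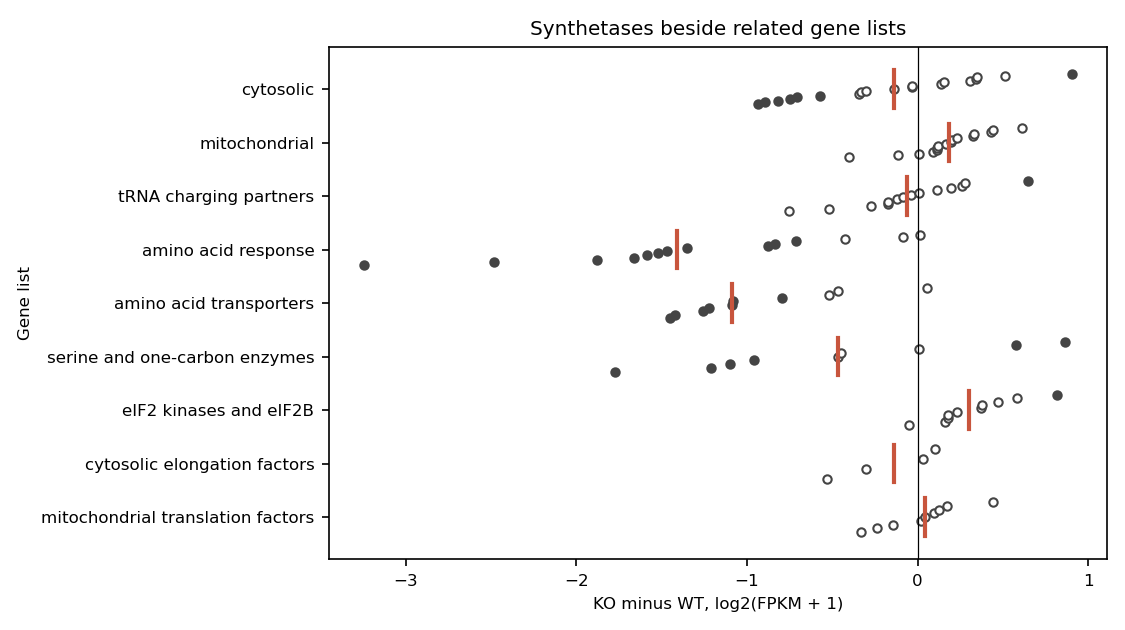
KO minus WT difference in log2(FPKM + 1) for each tested gene of 9 lists; filled points passed an adjusted p under 0.05, open points did not, and red bars mark each list's median. The amino acid response, with a median of -1.41, and the amino acid transporters, with -1.08, lie left of the cytosolic synthetases at -0.14, and the mitochondrial synthetases lie at 0.18.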

How the data were processed

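Total RNA of 4 HFL1 libraries (2 WT, 2 KO) was sequenced in pairs and aligned with HISAT2 2.0.5, per the labels' protocols. The submitters' processing notes name the builds hg38 and mm10. The values are FPKM as the authors deposited them. No source used here gives the counting tool, strand setting or scaling. Coordinates and lengths of all 58735 genes equalled GENCODE release 29 on GRCh38, with length as the union of exons. FPKM times length was a whole multiple of 1 step per library in 100% of values above 0 (tolerance 0.01), which gave the reads. The mitochondrial genome took 12.7% of reads in WT replicate 2 and 9.34% to 9.71% in the others.

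Genes with at least 1 FPKM in at least 2 libraries, 14100 in all, were fitted as log2(FPKM + 1) with limma 3.58.1 in R 4.3.3, using a prior variance that follows the mean level (prior df 3.54, residual df 2) and Benjamini-Hochberg adjustment over all of them, two-sided. Calls were 1711 higher and 1572 lower. Alternatives were pseudocounts of 0.1 and 0.5, other filters and scalings, a constant prior, a replicate block and leaving out each library. The members, compartments, lists and motif were chosen with earlier results of these data known. The naming rule took all members, CALU and, per other list, the 4 largest called changes, or the 4 most abundant genes where fewer than 2 were called. All members are named, but of the other lists only some of the genes that the rule picks. ATF4, DDIT3, ASNS, MTHFD1, SHMT1, DTD1, QRSL1, GATB, GATC, EIF2AK3, EIF2AK4, IRF1, IFI6, OAS1 and the markers were named after their values were seen. A gene that the naming rule picks, and the count of its list, are not reported here.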

Additional observations from a re-analysis of the deposited data

How the results depend on the processing

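The 7 synthetase genes that fell and the 1 that rose kept their calls with pseudocounts of 0.1 and 0.5, scaling to equal total reads, quantile normalization and a constant prior. With no filter on low values 0 fell and 0 rose, and over all genes 193 fell and 183 rose. The filter of 5 FPKM tested 27 members and left 6 that fell and 1 that rose, TARSL2 not being tested, while 1041 of all genes fell. Leaving out 1 library at a time gave 0 to 5 members that fell and 0 to 1 that rose, and over all genes 537 to 1260 that fell and 505 to 1321 that rose. The median log2 change of the mitochondrial genes, 0.18, was 0.23 with a pseudocount of 0.1, 0.12 with the filter of 5 FPKM, 0.14 both with scaling to equal total reads and with quantile normalization, and 0.11 to 0.22 leaving out 1 library. That of the cytosolic genes, -0.14, ran from -0.30 without KO replicate 1 to -0.09 with the filter of 5 FPKM, and was -0.25 without WT replicate 2 and -0.22 with quantile normalization. Over 73 named and listed genes, 806 of 864 single-gene results stayed on their side of the threshold, 43 lost and 15 gained a call, and 0 called genes reversed. Where results changed, the cause was not tested, other than for genes a filter removed.

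With a replicate block 9 synthetase genes fell and 6 rose, the 8 called without it and DARS, IARS, IARS2, KARS, PARS2, SARS2 and TARS2, and over all genes 2577 fell and 2968 rose. Deviations from the group means of libraries with the same number correlated at 0.41 across genes, but with 2 pairs and no label that ties the numbers, they are taken to share only a number. Counting error limits SARS2 most, at 38 to 103 reads per library.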
